A study of Mus musculus with 28 samples.

Results

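Axon guidance ligands and receptors were examined here as a group of 67 genes: semaphorins with their plexin and neuropilin receptors, ephrins with their Eph receptors, Slits with their Robo receptors, and netrins with Dcc and the Unc5 receptors. Members were chosen by gene symbol alone, from the 45952 rows of the deposited expression tables. The 67 genes filled 68 rows, since Epha5 had a second, short row that was listed at 0 in every library. No measured value entered this rule, though the group was chosen with earlier results of these data known.

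The series profiled RNA of sensory neurons of the dorsal root ganglion (DRG) in male and female mice. Naïve neurons came from AdvGFP mice (Tg(Avil-EGFP)QD84Gsat), in which the promoter of advillin, a gene of peripheral sensory neurons, drives green fluorescent protein. They were taken at 3 to 6 months of age without estrus identification and collected by FACS, with 11 male and 11 female libraries. Neurons of injured C57BL/6J mice (6 weeks to 7 months of age, estrus identified) were purified magnetically (MACS) on day 8 after partial sciatic nerve ligation (SNL), with 3 male and 3 female libraries. Each library pooled 2 mice. The labels name satellite glial cells as the contaminant of the FACS libraries and erythrocytes as that of the MACS libraries, and by the study's methods MACS isolates small-diameter nociceptive C-fibre neurons alone. For the naïve replicates, with n = 11 libraries per sex, the methods give trigeminal ganglia, which serve the head, for n = 2 and lumbar ganglia for n = 9. The sources used here do not say which libraries these were. Strain, purification and injury differed together between naïve and SNL libraries, and the 2 tables were normalised separately, so the effects of these cannot be told apart.

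Axon guidance molecules steer growing axons by attraction or repulsion. Class 3 semaphorins are secreted and act through neuropilins, which bind the ligand, and plexins, which signal, whereas most other semaphorins are membrane-bound and bind plexins directly. Ephrins of the A class are tethered by a lipid anchor and those of the B class span the membrane, and both bind Eph receptor tyrosine kinases on neighbouring cells. Slits are secreted repellents for Robo receptors, and netrins attract axons through Dcc or repel them through Unc5 receptors. In the DRG these systems guide sensory axons to skin, muscle and spinal cord during development, and many of the genes stay on in adult neurons.

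Values were FPKM, that is fragments mapped to a gene, scaled by the transcript's length and the library's depth, so levels of different genes can be set side by side per length. Depth was 24800048 to 40035653 input reads per naïve library and 30544219 to 50649730 per SNL library. The RNA integrity number (RIN) ran from 5.2 to 9.9, with 1 male naïve library lacking a value. Of the pan-neuronal markers Rbfox3, Uchl1, Prph, Avil and Snap25, all were above 25 FPKM in every library. The summed FPKM of 6 satellite glial markers was 1411.59 to 6992.83 in naïve and 44.2 to 90.4 in SNL libraries. After SNL Fabp7 and Apoe, 2 of these markers, did not exceed 7.73 and 3.86 FPKM. Glul alone of the 6 had a higher median after SNL, at 54.9 FPKM (37.0 to 71.5) against 29.5 (21.8 to 52.1) in naïve libraries. The summed FPKM of 5 erythroid genes was at most 71.6 in naïve libraries and at least 560.7 after SNL. In 4 naïve libraries (male 2 and 10, female 2 and 11) the Hox genes of paralogue groups 6 to 10, which mark the trunk, summed to 0.34 to 0.62 FPKM, against 77.5 to 154 in the other 18. Female naïve library 4 stood apart by markers of other cells, with the highest sums for Schwann cell (3818.1 FPKM against at most 1898.4 in the others), fibroblast (323 against 67.8) and endothelial genes (54.3 against 7.11), and with the lowest pan-neuronal sum (3797 FPKM).

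Expression of the group was concentrated in few members. The mean FPKM reached 1 for 30 of the 67 genes in naïve and 27 in SNL libraries, 26 of them in both. Efna1 alone made up 34.8% of the summed mean FPKM of the members in naïve libraries and 33.3% after SNL, and the 10 highest members made up 76.6% and 82.3%. At the other end, Efna4 and Epha1 were listed at 0 in every library of both experiments. In each naïve library 15 members stayed at or above 1 FPKM, and 15 others were below it throughout.

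**Figure D1:**
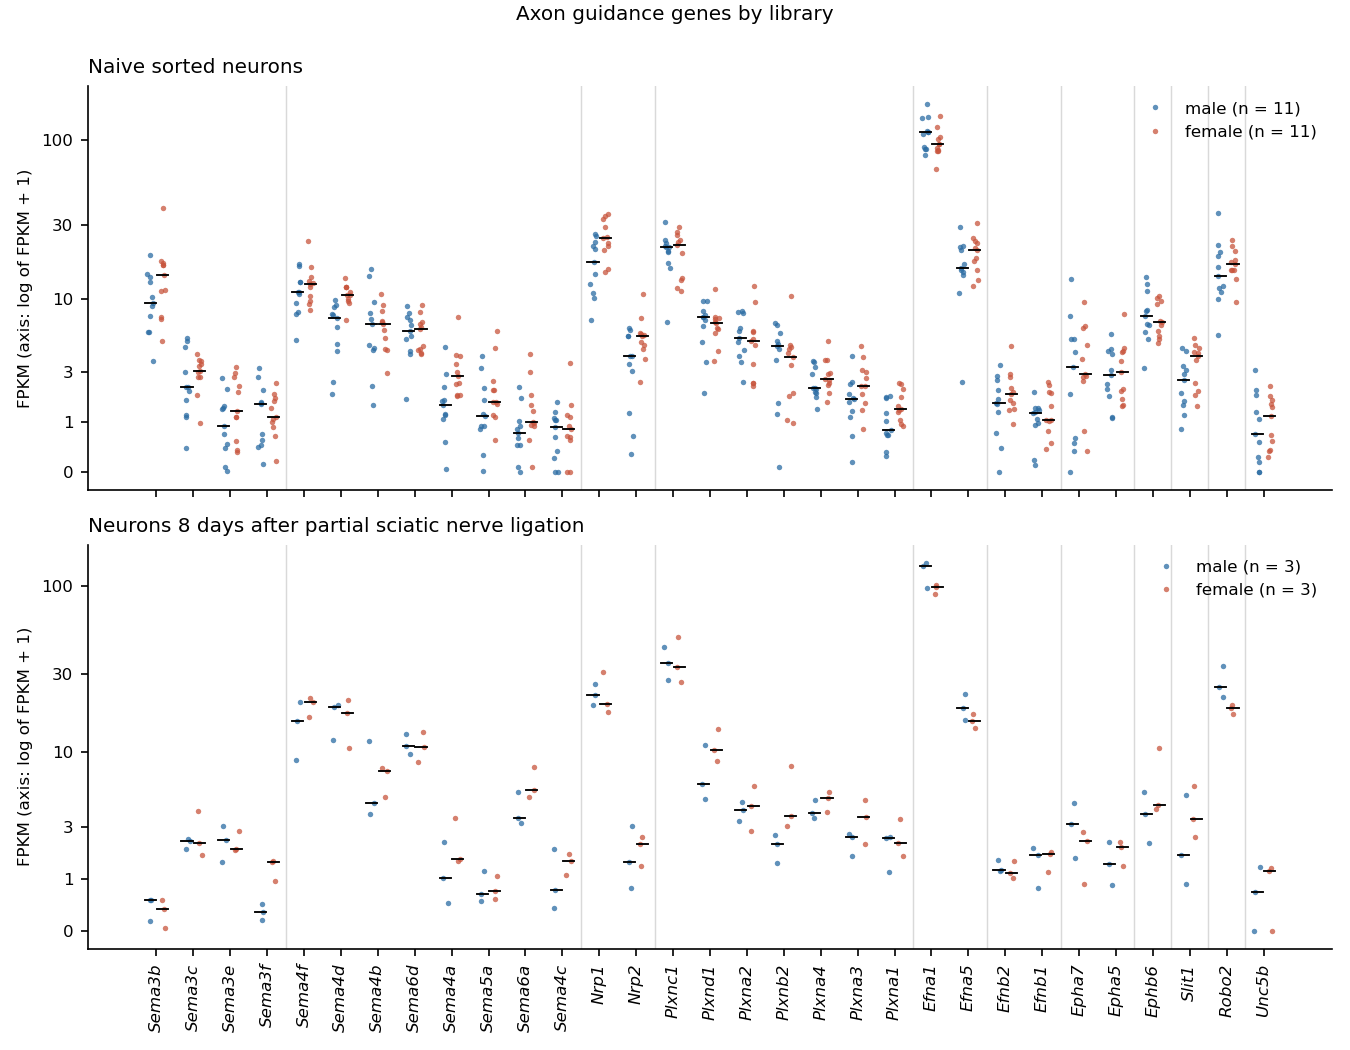
FPKM of the 31 members with a mean of at least 1 in either experiment, by library, on a log axis of FPKM + 1, with naïve libraries above and SNL libraries below. Points are libraries (blue male, red female), black bars are medians per sex, and grey lines part the families. Efna1 lay highest in both panels, Sema3b fell below 1 FPKM in all 6 SNL libraries, and male and female points overlapped for every naïve gene.

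Among the semaphorins, Sema3b and Sema4f led in naïve neurons. Sema3b, a secreted class 3 member, averaged 12.7 ± 7.36 FPKM (SD, n = 22), ahead of Sema3c (2.82 ± 1.34) and Sema3e (1.36 ± 1.00). Sema3f averaged 1.34 ± 0.84 FPKM, and Sema3a, the classical repellent of sensory axons, was listed at 0 in 19 of 22 naïve libraries and did not exceed 1.08 FPKM. Sema3d and Sema3g stayed below 1 FPKM on average. After SNL the class was led by Sema3c (2.45 ± 0.77, SD, n = 6) and Sema3e (2.28 ± 0.58), while Sema3b averaged 0.35 ± 0.21 FPKM.

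Of the membrane-bound semaphorins, 7 of 13 had a naïve mean of at least 1 FPKM. Sema4f averaged 12.1 ± 3.93 FPKM, Sema4d, a ligand of B-class plexins, 8.67 ± 3.14 and Sema4b 6.94 ± 3.53 (SD, n = 22 each). Sema6d, a ligand of A-class plexins, followed at 6.01 ± 1.86 FPKM. The SD of these 4 genes overlapped between neighbours in the order. Sema4a (2.48 ± 1.64), Sema5a (1.90 ± 1.46) and Sema6a (1.16 ± 0.99) completed the 7. Sema4c and Sema5b averaged 0.88 and 0.86 FPKM, and Sema4g, Sema6b and Sema6c at most 0.29. After SNL Sema4f, Sema4d and Sema6d again led, at 17.2 ± 4.71, 16.5 ± 4.28 and 11.01 ± 1.86 FPKM (SD, n = 6). Sema7a, a lipid-anchored semaphorin that binds Plxnc1 and integrins, averaged 0.66 ± 0.61 FPKM.

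The receptors of semaphorins were broadly present. Plxnc1, the plexin that binds Sema7a, was the highest plexin at 20.4 ± 6.09 FPKM in naïve neurons (SD, n = 22) and 36.1 ± 9.09 after SNL (SD, n = 6). It ranked between the 2nd and the 7th place among the members in each naïve library and 2nd in all 6 SNL libraries. Nrp1, the coreceptor for several class 3 semaphorins and VEGF, averaged 21.3 ± 7.71 FPKM in naïve and 22.6 ± 4.89 in SNL libraries. Its relative Nrp2 averaged 4.67 ± 2.34 and 1.92 ± 0.84 FPKM. Next among the naïve plexins came Plxnd1 (6.84 ± 2.20), a receptor for Sema3e, and Plxna2 (5.56 ± 2.55). After SNL Plxnd1 averaged 9.15 ± 3.33 and Plxna4, a partner of Nrp1, 4.42 ± 0.74 FPKM. Plxnb2, Plxna4, Plxna3 and Plxna1 had naïve means of 3.98, 2.70, 2.14 and 1.30 FPKM. Plxnb1 (0.35 and 0.33) and Plxnb3 (0.69 and 0) had a mean below 1 FPKM in both experiments.

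Ephrins were dominated by 1 gene. Efna1, a ligand of EphA receptors, was the highest member in every one of the 28 libraries. It ran from 66.1 to 165 FPKM with a median of 97.8 in naïve neurons, and in the SNL libraries it was 136, 96.3 and 130 FPKM in males and 97.6, 100.7 and 89.3 in females. Its coefficient of variation, the SD as a percentage of the mean, was the lowest of the 30 naïve members with a mean of at least 1 FPKM, at 22.5% against a median of 49.4% over these members and 39.2% over all 11729 genes at that level. Efna5 averaged 18.5 ± 6.25 FPKM in naïve and 17.4 ± 3.07 in SNL libraries. Efna2 and Efna3 were at 0.28 and 0.22 FPKM in naïve neurons, and the B-class ephrins were at 1.91 (Efnb2), 1.24 (Efnb1) and 0.10 FPKM (Efnb3).

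In sum the EphA receptors were low beside the A-class ephrins, while the EphB receptors were not low beside the B-class ephrins. The highest Eph receptor was Ephb6, which has an inactive kinase domain, at 7.89 ± 2.68 FPKM in naïve (n = 22) and 5.06 ± 2.84 in SNL libraries (SD, n = 6). Epha7 averaged 3.93 ± 3.40 and Epha5 3.21 ± 1.70 FPKM in naïve neurons, and Epha7 varied most of the 30 members, with a coefficient of variation of 86.7% and a range from 0 to 13.7 FPKM. The other members of both classes averaged below 1 FPKM, with Epha4 at 0.57, Ephb3 at 0.68 and Ephb1 at 0.26. Epha2, Epha3, Epha6, Epha8, Epha10, Ephb2 and Ephb4 had naïve means from 0.04 to 0.44 FPKM. Summed over the 9 EphA genes the mean naïve level was 8.99 FPKM, and over the 5 ephrin-A genes 123.5. Over the 5 EphB genes it was 9.23 FPKM, and over the 3 ephrin-B genes 3.25.

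For Slits and Robos, 1 ligand and 1 receptor stood out. Robo2 averaged 16.7 ± 6.30 FPKM in naïve and 22.6 ± 6.02 in SNL libraries, while Robo1 was at 0.97 ± 0.50 and 0.29 ± 0.23. Slit1 averaged 3.07 ± 1.37 and 3.28 ± 1.95 FPKM. Slit2 and Slit3 had naïve means of 0.36 and 0.08 FPKM, and Robo4, the endothelial Robo, and Robo3 0.27 and 0.02. Robo4 was listed at 0 in 15 of 22 naïve libraries and reached 5.65 FPKM in 1, female 4.

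Of the netrin system little was detected. Ntn1 and Ntn4, the only netrins in the table that matched, did not exceed 0.11 and 0.47 FPKM in any naïve library. Dcc was listed at 0 in 13 of 22 naïve libraries and reached 0.37 FPKM at most. Unc5b led the repulsive receptors at 1.06 ± 0.86 FPKM, before Unc5a (0.56) and Unc5c (0.48). At such levels a value of 0 is what the estimate gave for the library and does not show that a transcript was absent.

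Of the 52 members that reached 1 FPKM in a naïve library, 12 had their highest value in female 4, the library with the highest Schwann cell, fibroblast and endothelial marker sums. Sema3b was at 38.5 FPKM there and at most 19.5 in the other 21 libraries, Plxnb3 at 3.11 against at most 1.55, and Sema4a at 7.66 against at most 4.67. Robo4 did not exceed 0.11 FPKM elsewhere, and Sema3a, a secreted repellent of sensory axons, was at 1.08 against at most 0.07. Efna1, by contrast, had its lowest value there. How many of all genes peaked in female 4 was not counted, so the 12 are not read as a trait of the members. The part of the other cells in these values was not tested.

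The first question of the study was whether sensory neurons differ between the sexes. No axon guidance gene passed the threshold in naïve neurons. The comparison covered the 36 members with at least 1 FPKM in at least 3 libraries of a sex, and the other 31 stayed below this filter. With limma on log2(FPKM + 1) and Benjamini-Hochberg adjustment over all 12893 genes tested, 0 of 36 members had an adjusted p under 0.05, beside 0.0543% of all genes, and the lowest adjusted p of a member was 0.575. At an unadjusted p under 0.05, 5 members were higher in females and 0 in males, beside 5.90% and 2.39% of all genes.

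The member with the smallest p was Sema4d. It ran from 1.94 through a median of 7.53 to 9.95 FPKM in males and from 7.31 through 10.7 to 13.8 in females. The ranges overlapped, as they did for all 36 members, while 0.0155% of all genes had every female and 0.0388% every male above the other sex. The 5 lowest of the 22 values were all from male libraries. The difference, male minus female, was -0.76 on the log2(FPKM + 1) scale (SE 0.20, limma, adjusted p = 0.575). With RIN as a covariate it was -0.54, and RIN itself went with Sema4d at r = 0.72 and rho = 0.70 over 17 libraries (permutation, adjusted p = 0.168 and 0.169), or r = 0.44 without the 2 libraries farthest from the median RIN. The part of RNA quality in the difference was not tested further.

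Nrp1 ran from 7.30 through 17.6 to 26.2 FPKM in males and from 15.1 through 24.8 to 35.2 in females, a difference of -0.56 (SE 0.20). Sema4a, a semaphorin best known from the immune system, differed by -0.69 (SE 0.24), and Nrp2 and Plxna1 differed by -0.64 and -0.38, each of these 4 with a limma adjusted p of 0.595. In GENCODE, 10.7% of the exon bases of Plxna1 overlap an antisense transcript, Gm26811, and the unstranded library kit cannot tell them apart. Towards males the smallest p belonged to Efna1 (0.20), Plxna2 (0.12) and Ephb6 (0.07).

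The members' estimates lay mostly on the female side. A higher female mean was found for 31 of 36 members, beside 61.0% of all genes, and the median difference was -0.21 against -0.07 over all genes tested. With quantile normalisation between libraries the median was -0.09 with 23 of 36 on the female side, and with a pseudocount of 0.1 it was -0.43. The 95% interval lay within -1 and 1 for 32 of 36 members, beside 86.2% of all genes. For Sema4d, Sema4a, Nrp2 and Epha7 it reached past -1. Without female 4, with the filter applied again, the median was again -0.21. Of the members then tested 29 lay on the female side, and Sema4a was at -0.58 (limma, adjusted p = 0.648). Sema7a, on the female side before, no longer met the filter, so the 29 are not out of 36. The libraries of the sexes also differed in make-up. The mean log2(FPKM + 1) of 6 large-diameter neuron markers, named below, had a median of 3.73 in males and 4.77 in females, with overlapping ranges. Median RIN was 8.4 and 9.1. With RIN as a covariate the members' median was -0.17, with 27 on the female side. The part of the neuron mix in these differences was not tested. In bulk libraries fewer cells of a type and less RNA per cell cannot be told apart.

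**Figure D2:**
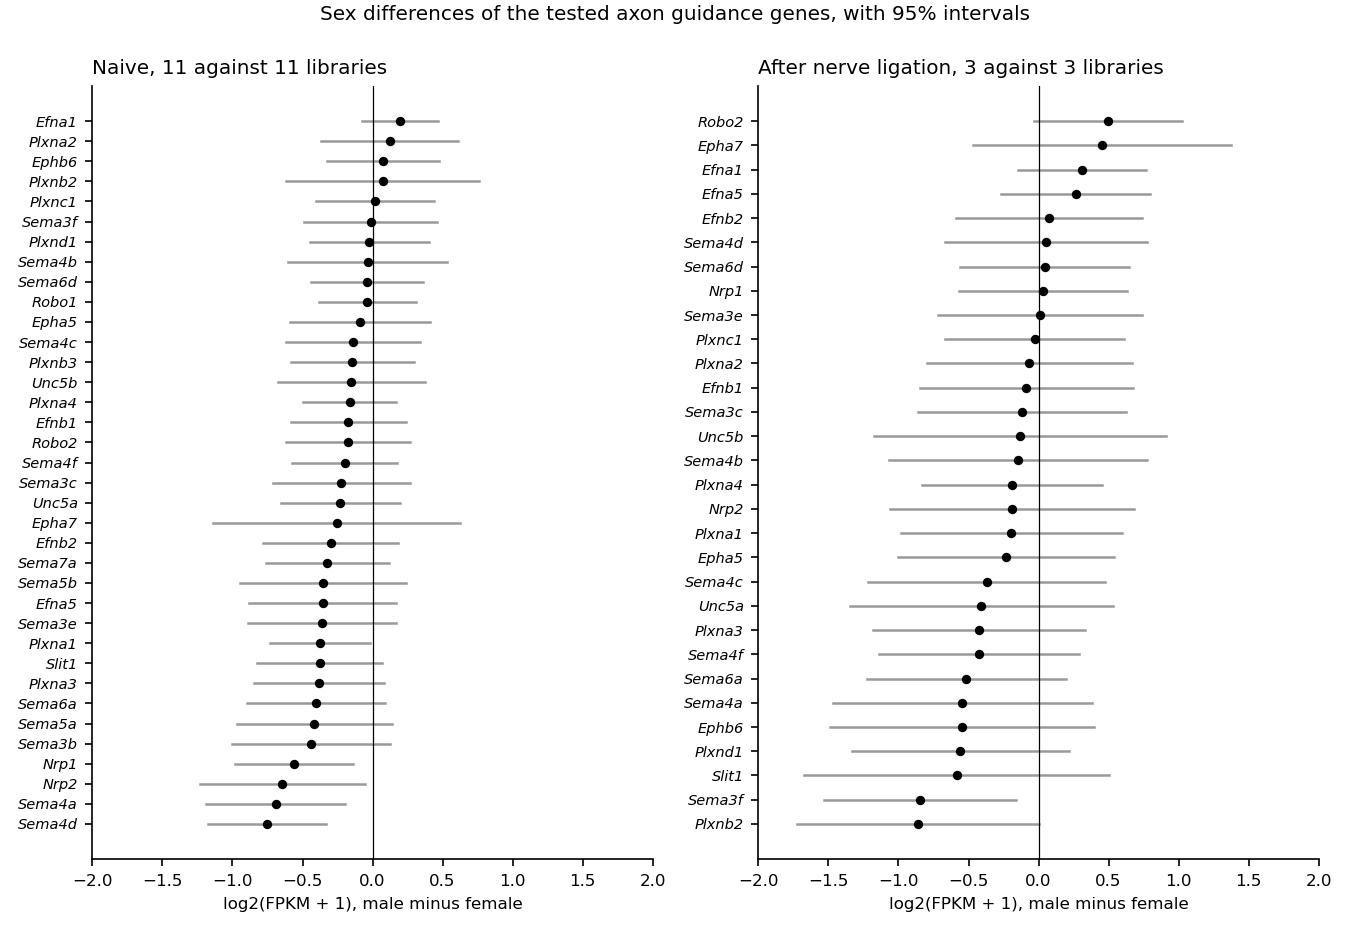
Difference between male and female means of log2(FPKM + 1) for each tested member, with points for the estimate and grey bars for the 95% interval from limma, in naïve (36 members) and SNL libraries (30 members). In naïve neurons 31 of 36 points lie left of 0, the female side, and the SNL intervals are wider.

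After SNL no member passed the threshold either. The filter of at least 1 FPKM in at least 2 libraries of a sex left 30 members, all of them also tested in naïve neurons, and 37 stayed below it. By limma 0 of 30 had an adjusted p under 0.05, beside 0.0442% of the 11303 genes tested, with a lowest adjusted p of 0.945. An unadjusted p under 0.05 was found for 1 member, Sema3f, higher in females, and for 0 towards males, beside 2.57% and 1.11% of all genes. The mean was higher in females for 21 of 30 members, beside 59.4% of all genes, with a median of -0.17 against -0.08. With quantile normalisation the members' median was -0.06 with 17 of 30 on the female side, against 0.01 over all genes, and with median-of-ratios scaling it was -0.10 with 19 of 30. Without male SNL library 1, with the filter applied again, the median was -0.03, with 17 of the members then tested on the female side. The interval lay within -1 and 1 for 13 of 30 members, beside 53.3% of all genes.

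Sema3f, a secreted ligand of Nrp2, was at 0.16, 0.44 and 0.30 FPKM in the 3 male libraries and at 0.97, 1.55 and 1.52 in the 3 female ones. All females lay above all males, and the difference was -0.85 (SE 0.30, limma, adjusted p = 0.945). In naïve neurons the same gene differed by -0.01 (SE 0.23). Plxnb2, a receptor for class 4 semaphorins, had the same order, with 1.5, 2.21 and 2.61 FPKM in males against 3.66, 8.08 and 3.07 in females. Ranges with every female above every male occurred in these 2 members of 30 and in 4.68% of all genes.

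Robo2 had the opposite order, at 33.6, 24.9 and 21.9 FPKM in males and 19.4, 18.7 and 17.2 in females. It was the only member with every male above every female, which 3.58% of all genes showed, and the difference was 0.50 (SE 0.23, limma, adjusted p = 0.945). By p, the next towards males were Efna1 (a difference of 0.31) and Efna5 (0.27), and towards females Sema6a (-0.52), while some members with a larger p differed by more, such as Epha7 (0.46) and Slit1 (-0.58). Sema4d, first in naïve neurons, differed by 0.05 (SE 0.32) after SNL. Of the 30 members tested in both experiments, 18 had a difference of the same sign in both, and the others changed sign. Among the 18, the female mean was higher for 17 and the male mean for 1, Efna1. The same count was not made over all genes.

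Levels before and after injury were set side by side without a test. Sema3b was the member that stood apart. Its 22 naïve values ran from 3.69 to 38.5 FPKM with a median of 11.5, whereas after SNL it was at 0.15, 0.51 and 0.52 FPKM in males and 0.52, 0.05 and 0.35 in females. Every SNL library lay below every naïve library, with or without female 4. Among the 31 members with a mean of at least 1 FPKM in either experiment, Sema3b was the only one whose SNL range lay wholly below the naïve range, beside 1.82% of 12293 genes. No member lay wholly above, beside 1.19%.

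Within each library the members were also ranked from the highest FPKM down, which no scaling of a library changes. Sema3b had a median rank of 6.5 in naïve and 37 in SNL libraries. Plxnb3, a plexin of oligodendrocytes and Schwann cells that is listed at 0 in all 6 SNL libraries and ran from 0 to 3.11 FPKM in naïve ones, lost 22.5 places. Sema3g, Ephb3 and Sema5b lost 17.5, 16.5 and 12, from naïve means of 0.49, 0.68 and 0.86 FPKM. The satellite glial markers summed to at least 1411.59 FPKM in the same naïve libraries and to at most 90.4 after SNL. Of these markers Glul alone had a higher median after SNL. The part of these markers in the shifts was not tested across the experiments.

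In the other direction Sema6a, a membrane-bound ligand of Plxna2 and Plxna4, gained 19.5 places, from a median rank of 31.5 to 12. It was at 3.25, 3.51 and 5.39 FPKM in male and 5.01, 5.61 and 8.00 in female SNL libraries, against 0 to 4.15 with a median of 0.90 in naïve ones. The FPKM ranges overlapped, while the ranks did not, at 9 to 15 after SNL and 17 to 55 in naïve libraries. Unc5d, Ephb2 and Epha10 gained 11, 10 and 10 places, and Robo4 and Epha8 9.5 each, all from naïve means below 0.4 FPKM. Atf3, the injury marker, ran from 62.3 to 276 FPKM after SNL and from 1.71 to 166 in naïve libraries, so that some naïve libraries carried it as well.

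Several abundant members kept their place. Efna1 ranked first in all 28 libraries, and Robo2, Nrp1 and Sema4f moved by 1 place or less in the median rank. The mean FPKM of Efna1, Efna5 and Nrp1 in SNL libraries was 1.04, 0.94 and 1.06 times the naïve mean. For Sema4d, Sema6d and Plxnc1 it was 1.91, 1.83 and 1.77 times, with ranges that overlapped.

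**Figure D3:**
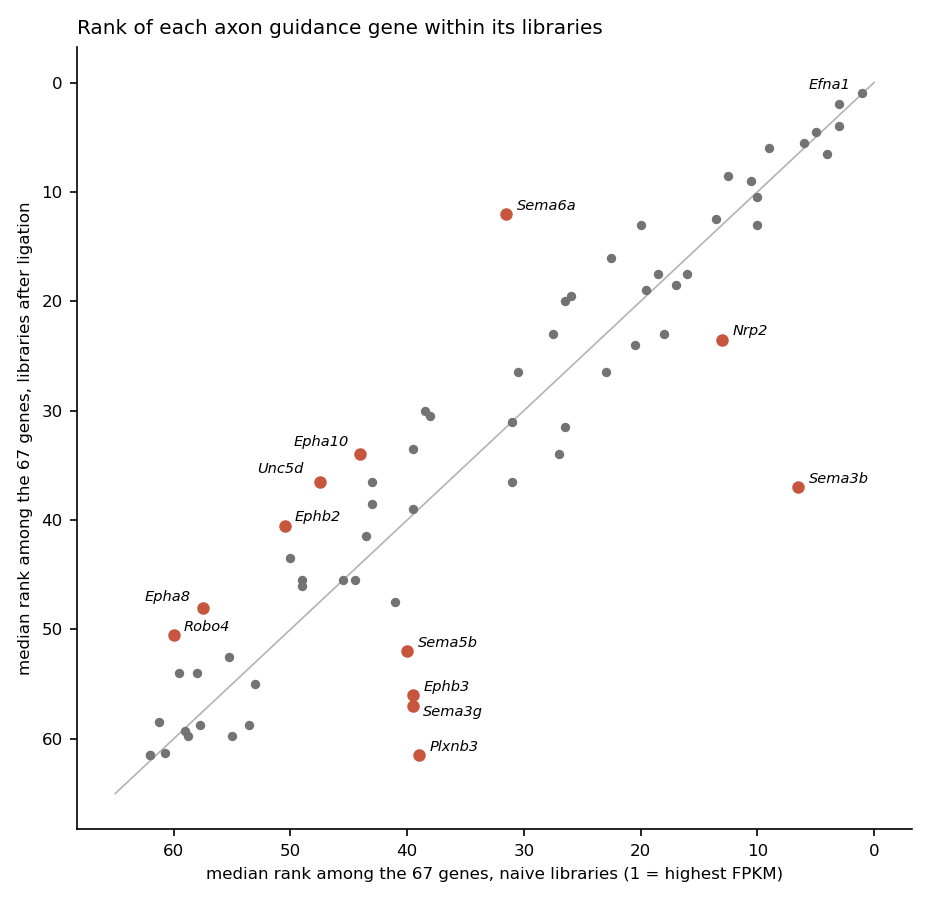
Median rank of each of the 67 genes among the members, in naïve libraries (horizontal) against SNL libraries (vertical), with rank 1 for the highest FPKM and the grey line for equal rank. Red points are genes that moved by at least 9.5 places, with Sema3b and Plxnb3 farthest below the line and Sema6a farthest above it.

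The 4 naïve libraries low for trunk Hox genes had a range separate from that of the other 18 for 1 of the 36 tested members. Epha5, a receptor of A-class ephrins with roles in topographic maps, was at 1.13, 1.15, 1.49 and 1.54 FPKM in these 4 libraries and ran from 1.77 to 7.98 with a median of 3.41 in the others. All 4 values lay below the lowest of the others. Ranges wholly below the others were found in 0.132% of 12893 genes, and 0 members lay wholly above, beside 0.256%. Some members with overlapping ranges had unlike medians, such as Epha7 (7.05 FPKM in the 4 libraries against 2.78) and Unc5b (0.37 against 1.23). Small-diameter neuron markers (Calca, Tac1, Scn10a, Trpv1, Mrgprd and P2rx3) summed to a median of 4310 FPKM in the 4 libraries and 12689 in the others. Calca weighed most in this sum, with a naïve median of 8543 FPKM, against 1332 for Tac1 and at most 202 for the rest. The mean log2(FPKM + 1) of the same markers was 7.90 to 8.09 in the 4 libraries, within the 6.94 to 9.31 of the others. The part of the neuron mix was not tested. These libraries were singled out from the data and are no group of the study, so no difference was tested.

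Variation between the remaining 18 naïve libraries was related to 4 measures: scores of satellite glial, injury-associated and large-diameter neuron markers, each the mean log2(FPKM + 1) of 6 genes, and RIN. A member was counted where both Pearson's r and Spearman's rho had an adjusted p under 0.05 over all genes and the 4 measures. One member passed, Sema7a with the large-diameter neuron score (Nefh, Pvalb, Ntrk3, Ntrk2, Spp1 and Cntnap2), beside 0.574% of all genes for positive and 0.233% for negative relations. No member passed with the glial score, the injury score or RIN, beside 0.132%, 0.0543% and 0.0155% of all genes in the positive direction. In the negative direction 0 members passed, beside 0.00% of all genes for both scores and 0.00776% for RIN.

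Sema7a was listed at 0 FPKM in the naïve male libraries 3, 5, 7 and 9, whose large-diameter scores were at most 3.73, and reached 1.80 in male 11, which had the highest score of 6.01. The relation had r = 0.91 and rho = 0.88 over 18 libraries (permutation p = 1e-05 for each, the smallest the permutations can give, adjusted p = 0.00905 and 0.0123). Without the 2 libraries farthest from the median score r was 0.88, without female 4 it was 0.90 and still passed (adjusted p = 0.0101 and 0.0350), and within males and females it was 0.92 and 0.86 (n = 9 each). Of single markers, Pvalb, which marks proprioceptors, went closest with Sema7a (r = 0.90) and Ntrk2 least (r = 0.50). Sema7a also went with the satellite glial score at r = 0.70, which did not pass (permutation, adjusted p = 0.107) and was 0.59 without the 2 farthest libraries, and these parts cannot be told apart. Its values were low throughout, at most 2.00 FPKM in any naïve library, and after SNL it was at 0.23 to 1.78. The expression filter was applied to all naïve libraries, and Sema7a met it through female 2, 4 and 11. Of these, female 2 (2.00 FPKM) and 11 (1.62) were low for trunk Hox genes and did not enter the coefficients. Among the 18 libraries that did, only male 11 and female 4 (1.40 FPKM) reached 1 FPKM. By these 18 alone Sema7a would not have met the filter of at least 1 FPKM in at least 3 libraries of a sex.

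Unc5a and Efna1 came next in relation to the same score, each passing for 1 of the 2 coefficients. For Unc5a, a netrin receptor, r was 0.78 and rho 0.83 (permutation, adjusted p = 0.0573 and 0.0224), and without the 2 farthest libraries r was 0.77. For Efna1 r was -0.80 and rho -0.79 (permutation, adjusted p = 0.0284 and 0.0530), with -0.82 in males, -0.71 in females and -0.78 without the 2 farthest libraries. Without female 4, the library with its lowest value, r was -0.77 and neither coefficient passed (adjusted p = 0.0620 and 0.0864). Efna1 thus ran from 165 FPKM in the library with the lowest score to 90.4 in that with the highest.

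Sema3b related to the satellite glial score at r = 0.73 and rho = 0.73, which did not pass (permutation, adjusted p = 0.0689 and 0.112). In the library with the highest glial score, female 4, it was at 38.5 FPKM, and without that library r was 0.62 (permutation, adjusted p = 0.225). Without the 2 libraries farthest from the median score, female 4 and 7, r was 0.58. Sema4f related to the injury score at r = 0.78 and rho = 0.71 (permutation, adjusted p = 0.0191 and 0.135) and Sema6a at r = 0.67 and rho = 0.62 (permutation, adjusted p = 0.130 and 0.256). Without the 2 farthest libraries r was 0.66 for Sema4f and 0.67 for Sema6a.

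**Figure D4:**
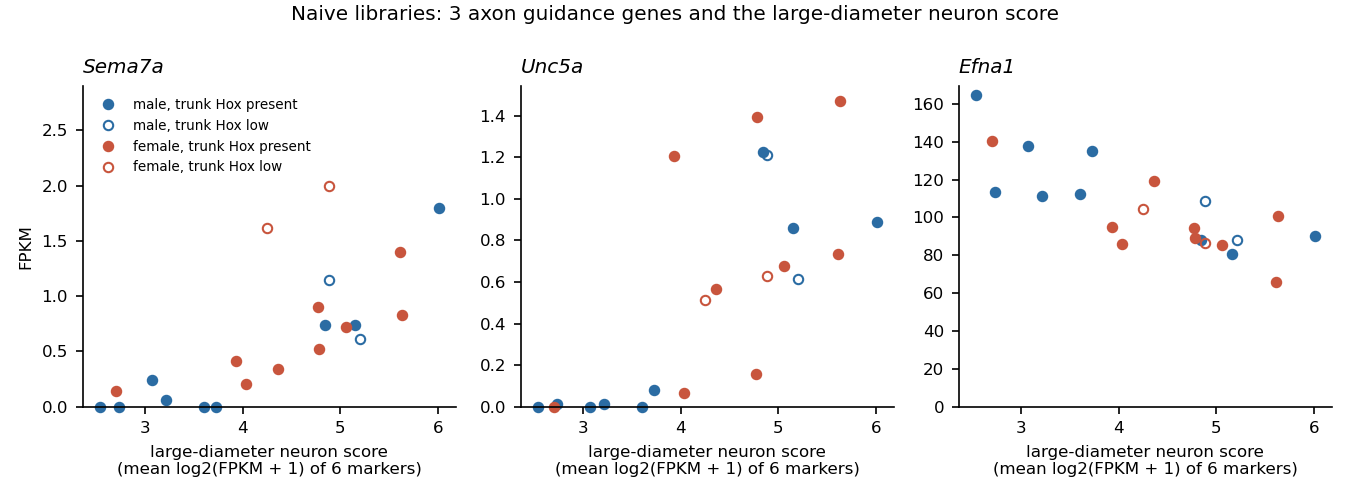
FPKM of Sema7a, Unc5a and Efna1 in each of the 22 naïve libraries against the large-diameter neuron score, the mean log2(FPKM + 1) of 6 markers. Blue points are male and red points female, and open circles are the 4 libraries low for trunk Hox genes, which did not enter the coefficients. Sema7a rises with the score (r = 0.91) and Efna1 declines (r = -0.80).

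**Figure D5:**
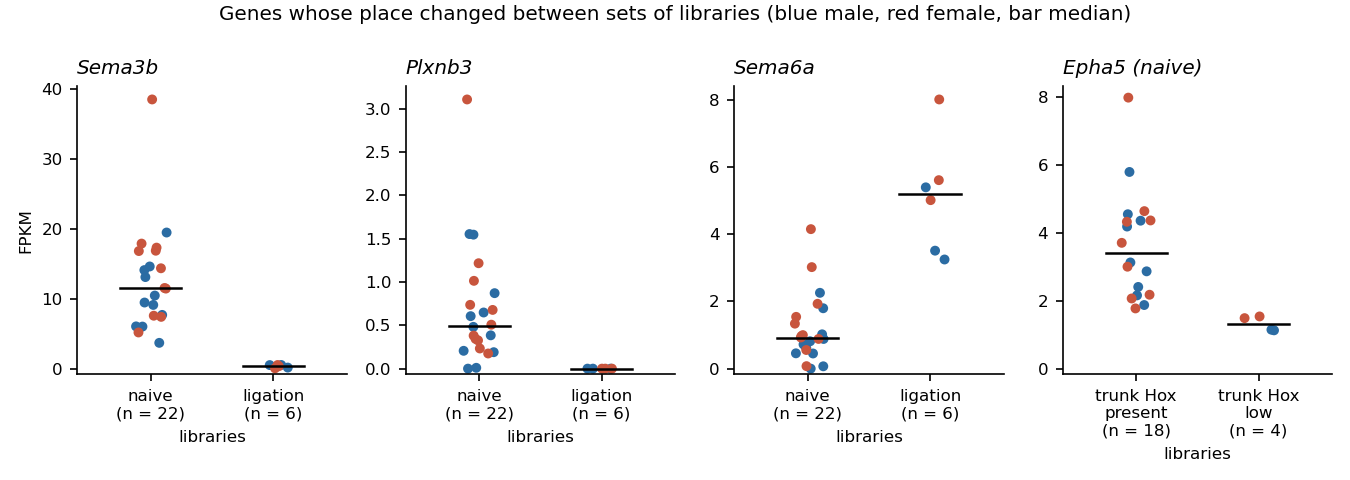
FPKM by library of Sema3b, Plxnb3 and Sema6a in naïve (n = 22) and SNL libraries (n = 6), and of Epha5 in naïve libraries with trunk Hox genes (n = 18) and low for them (n = 4). Points are libraries (blue male, red female) and bars are medians. Sema3b and Epha5 have ranges that do not overlap, and Plxnb3 is at 0 in all 6 SNL libraries.

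The 250 bases before the start of Sema7a and of Epha5 are shown because these members set libraries apart in naïve neurons. The Sema7a gene spans chromosome 9, 57940113 to 57962864 (mm10), and the Epha5 gene chromosome 5, 84054761 to 84417382. Sequences are from RefSeq (GRCm38.p6), printed 5′ to 3′ on the gene's strand, and capitals mark the GC box GGGCGG, searched on both strands.
Sema7a, chr9:57939862-57940111, plus strand: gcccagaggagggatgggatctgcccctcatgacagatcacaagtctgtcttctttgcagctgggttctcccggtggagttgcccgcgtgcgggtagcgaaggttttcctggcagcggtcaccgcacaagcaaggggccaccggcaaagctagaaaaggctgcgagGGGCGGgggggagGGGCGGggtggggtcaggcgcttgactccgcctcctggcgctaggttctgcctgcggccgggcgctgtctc
Epha5, chr5:84417383-84417632, minus strand: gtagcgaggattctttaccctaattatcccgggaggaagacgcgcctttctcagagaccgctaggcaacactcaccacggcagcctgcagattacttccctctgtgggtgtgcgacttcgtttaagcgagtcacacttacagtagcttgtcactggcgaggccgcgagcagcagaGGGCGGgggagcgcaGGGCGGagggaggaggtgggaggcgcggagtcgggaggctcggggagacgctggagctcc
Each window held 2 GC boxes. At least 1 occurs in 32.7% of 32851 such windows and at least 2 in 16.7%. Neither held TATAAA, which occurs in 12.4%. They contained 17 and 20 CpG dinucleotides, against a median of 6 over all windows and 16 over 73 windows of members. The 73 leave out the members of 1 chromosome, which the set of all windows includes. Of the 67 members 57 had a window in the table. These counts describe the sequence and show no binding.

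Other genes of the pathway were read from 2 lists. Of 30 further cues, receptors and coreceptors, 20 were tested in naïve neurons and 0 passed the sex comparison, beside 0.0543% of all genes, with a higher female mean for 17, beside 61.0%, and a median difference of -0.15 against -0.07. At an unadjusted p under 0.05, 5 were higher in females and 0 in males, beside 5.90% and 2.39% of all genes. Of 42 intracellular effectors 38 were tested and 0 passed, with 30 on the female side, beside 61.0%, and a median of -0.19 against -0.07. An unadjusted p under 0.05 was found for 3 towards females and 1 towards males, beside the same 5.90% and 2.39%. After SNL 0 of 20 and 0 of 35 passed by limma, beside 0.0442% of all genes, with a higher female mean for 12 and 21, beside 59.4%. The highest of the first list in naïve neurons were the adhesion molecules L1cam, a coreceptor for Sema3a, at 72.5 FPKM and Cntn1 at 22.8, and Rgmb, a ligand of the netrin receptor Neo1, at 15.3. The most abundant effectors in naïve neurons were Cfl1, which severs actin filaments, at 1370.4 FPKM, Dpysl2, the collapsin response mediator that relays semaphorin signals to microtubules, at 898 and the GTPase Cdc42 at 366. Their differences were 0.21 (SE 0.12), -0.41 (SE 0.30) and 0.28 (SE 0.10), with limma adjusted p of 0.624, 0.687 and 0.595.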

How the data were processed

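Expression was taken from the FPKM values that the authors deposited for all genes, in 1 table of 22 naïve and 1 of 6 SNL libraries. According to the methods and the submitters' processing notes, libraries were made with an unstranded low-input kit (SMARTer Ultra Low Input), 75 bp reads were aligned to mm10 with STAR keeping uniquely mapped reads, and FPKM came from Cufflinks on Galaxy. SAMtools was also named. Their versions, like the annotation, were not given in the sources used here. RIN is a quality score that the authors deposited beside the alignment statistics. The authors' DESeq2 tables hold their own comparisons and were not used. FPKM are not counts, so no count model was fitted and counting intervals could not be given.

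The members, lists and tests were chosen with earlier results of these data known. Sexes were compared within each table with limma 3.58.1 in R 4.3.3 on log2(FPKM + 1) with an intensity trend, two-sided, and Benjamini-Hochberg adjustment over all genes tested, with a threshold of 0.05. A fold change on this scale understates the change of low genes. Relations used permutation tests with 100000 resamples over libraries (Python 3.11.15, numpy 2.4.6, pandas 2.3.3). The 4 libraries low for trunk Hox genes were those with a summed FPKM under a 10th of the naïve median. Per the labels, RNA of an experiment was extracted together in 1 sex-matched batch. By the methods, mice were dissected and sorted in several sex-matched batches, which are not assigned to libraries in the sources used here, so no batch term was fitted and their part was not tested. Extraction and experiment cannot be told apart between naïve and SNL libraries. Both tests were tested on simulated data.

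Genes named in the text were the members past a threshold, the 3 highest of each family, the 3 with the smallest p in each direction, the 5 that gained or lost most rank places, those with separate ranges in the low trunk Hox libraries, and the 3 highest of each pathway list. Others were named for their role or place in a count, after their values were seen. Coordinates are those of the tables with 1-based starts, on mm10. Exon overlaps were read from GENCODE vM21. Alternatives were another pseudocount, no expression filter, other scalings, covariates, the replicate number as a block and left-out libraries.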

Additional observations from a re-analysis of the deposited data

How the results depend on the processing

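No member passed the sex comparison under any alternative run, with 0 called in naïve and SNL libraries alike. Leaving out 1 SNL library at a time, the median difference of the members ran from -0.25 to -0.03. Deviations of same-numbered male and female libraries had a median r of 0.011 over 11 naïve pairs (-0.18 to 0.30), above 0.1 in 1 pair. Over 3 SNL pairs the median r was 0.22 (-0.22 to 0.27), above 0.1 in 2 pairs. A replicate block called 0 members in either experiment. Scaling moved the split of all genes at an unadjusted p under 0.05: as deposited 308 were higher in males and 761 in females in naïve libraries, against 498 and 381 with quantile normalisation and 474 and 531 with median-of-ratios scaling. In SNL libraries the split was 126 and 291 as deposited, 200 and 187 with quantile normalisation and 177 and 208 with median-of-ratios scaling. Members higher in females at that level numbered 5 of 36 in naïve libraries as deposited, beside 761 of all genes. They numbered 3 with quantile normalisation, beside 381, and 3 without the low trunk Hox libraries, beside 620. Without the expression filter they numbered 8, beside 957, with 1 member higher in males, beside 404. In these last 2 settings the members and genes tested were not the same, and shares were not computed.

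Relations with the scores depended more on the settings. With all 22 naïve libraries 1 member passed with the satellite glial score, Sema3b, beside 0.349% of all genes in the positive direction. With the large-diameter score 3 passed, Sema7a and Unc5a positively and Efna1 negatively, beside 0.993% and 0.458% of all genes. With a pseudocount of 0.1 or median-of-ratios scaling 2 passed with the large-diameter score, Sema7a and Unc5a. Beside them 0.582% and 0.629% of all genes passed in the positive direction. Among genes with a mean of at least 5 FPKM, which leaves out Sema7a and Unc5a, 1 passed, Efna1, beside 0.515% in the negative direction. Without female naïve library 4, left out after seeing the data, 0 members passed with the glial score, the injury score or RIN. In either direction at most 0.0388% of all genes passed with these 3. With the large-diameter score 1 passed, Sema7a, beside 0.279% of all genes in the positive direction. By rank within the library 2 members had separate naïve and SNL ranges, Sema3b and Sema6a. Of the alternatives chosen after seeing the data, leaving out the low trunk Hox libraries or female naïve library 4 left Sema3b alone below, and median-of-ratios scaling left Epha5 alone. With 3 libraries per sex, SNL intervals lay within -1 and 1 for only 13 of 30 members, and FPKM below 1 carry few reads.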
